A study of Ovis aries with 6 samples.

Results

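The genes described here are 34 genes of glucose uptake, glycolysis, lactate export and the response to low oxygen, chosen by symbol from the 18865 rows of a raw count table. All 34 were present, and 32 passed a filter on low counts; the low-oxygen targets CA9 and ANKRD37 did not. The libraries come from mitral valve endothelial cells (VECs) of sheep, the cells that cover the leaflets of the mitral valve, treated for 24 h with plasma from naive sheep (3 libraries) or from sheep after myocardial infarction (post-MI, 3 libraries). No genotype or other agent is given in the labels, and the labels do not say whether replicates came from separate cultures, cell donors or plasma donors or whether plasma was pooled. The spread that each p-value rests on may therefore be technical.

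Glycolysis splits glucose into pyruvate in a chain of cytosolic enzymes, and lactate dehydrogenase then turns pyruvate into lactate, which leaves the cell through monocarboxylate transporters. Endothelial cells are known to draw much of their ATP from this route even with oxygen present. When oxygen is scarce, hypoxia-inducible factors (HIF) escape hydroxylation by the EGLN enzymes and raise transcription of many of these genes, together with genes that limit pyruvate entry into mitochondria, remove mitochondria, hydroxylate collagen or attract vessels.

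Naive replicate 1 stood apart from the other 5 libraries over the whole transcriptome as well as across these genes, so results are given with and without it. Over the 14326 genes tested its log2 levels correlated with those of the other libraries at r = 0.915 to 0.937, where all other pairs of libraries had r = 0.946 to 0.984 (a description across genes, which are not independent). Its depth did not stand apart, at 19916079 counts where the 6 libraries ranged from 14858472 to 20672794. All 12 endothelial markers were detected, with summed levels of 2889.6 to 4335 CPM (a gene's count divided by the library's total count and scaled to a fixed size) and 3692 in naive replicate 1. Summed markers of fibroblasts and valve interstitial cells (all 10 detected) were lowest in naive replicate 1, 8028 CPM against 13526 to 19661 CPM. Most of this sum came from COL1A1, COL1A2 and COL3A1, at 3183, 2160 and 2491 CPM in naive replicate 1. Of the 10, 7 were lowest in that library (4126 of all 14326 genes tested), and PDGFRA was highest there. Summed smooth muscle and pericyte markers were likewise lowest in naive replicate 1, 1088 CPM against 2832 to 6402 CPM, with RGS5 at 0 in all 6 libraries. Most of this sum came from ACTA2, at 645 CPM in naive replicate 1. Of the 8 tested, 6 were lowest in that library, and SMTN was highest there. The 9 leukocyte markers in the table summed to 10.9 to 15.2 CPM and the 4 red cell and platelet markers to 3.45 to 5.87 CPM. Markers also differed between the plasma groups, given here with no test. The median log2 fold change (post-MI minus naive) was 0.18 over 12 endothelial and 0.76 over 8 smooth muscle and pericyte markers. Without naive replicate 1 these medians were 0.36 and 0.50. Over the 10 fibroblast and valve interstitial markers the median was 0.0058, and -0.22 without naive replicate 1. What part these marker differences had in the results was not tested. In bulk RNA, fewer cells of a type cannot be told apart from lower levels of these genes in the cells present.

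With post-MI plasma the levels of most of these genes averaged lower than with naive plasma, but no member passed the test. Naive replicate 1 was far above the rest: 27 of the 32 tested members were at their highest of the 6 libraries, against 28.9% of all genes tested. In 20 of the 32 this library was above each of the others by more than 1 on the log2 CPM scale, against 2.02% of all genes. The members' median height of naive replicate 1 over the highest of the other libraries was 1.22 on this scale, and that of all genes tested was -0.27. Summed over 17 enzymes from hexokinase to lactate dehydrogenase, levels were 19287 CPM in naive replicate 1, 6763 and 8211 in naive replicates 2 and 3, and 4383, 5493 and 6797 in post-MI replicates 1, 2 and 3. Post-MI replicate 3 thus lay above naive replicate 2, and the sums of the groups overlapped.

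**Figure D1:**
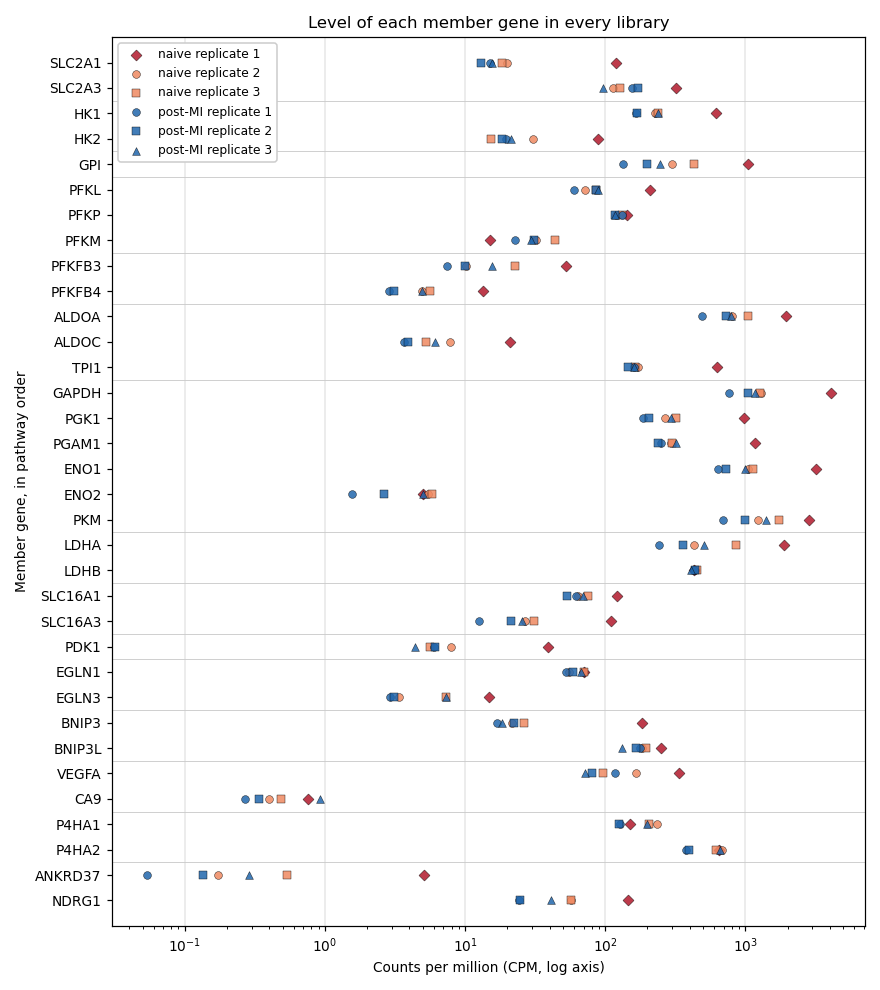
CPM on a log axis for each of the 34 genes in pathway order, with 1 point per library (naive in red and orange, post-MI in blue). Naive replicate 1 (red diamonds) is the rightmost point for 27 of the 32 tested genes, by the widest margins for BNIP3, SLC2A1 and PDK1, while LDHB, PFKP and EGLN1 show 6 nearly coincident points.

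The log2 fold change (post-MI minus naive) was below 0 for 32 of 32 tested members and for 52.1% of all genes tested, and the members' median was -1.06 against -0.01 over all genes. After Benjamini-Hochberg adjustment over 14326 genes, the quasi-likelihood test of edgeR called 0 members lower and 0 higher, as for all genes tested (0%). Adjusted p-values of the members ran from 0.491 (NDRG1) to 0.959 (LDHB). At an unadjusted p under 0.05, edgeR gave 13 members lower (4.08% of all genes) and 0 higher (4.61% of all genes). limma-voom called 0 members and gave 6 lower at an unadjusted p under 0.05 (3.39% of all genes). The DESeq2 Wald test called 2 lower, NDRG1 and GPI (0.464% of all genes), with adjusted p-values of 0.0262 and 0.0306, and 0 higher (1.04% of all genes).

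Without naive replicate 1 the median log2 fold change of the 32 members was -0.35, against 0.00402 over all genes. Of the 32, 30 were still negative (49.4% of all genes), and SLC2A3 and PFKL turned positive at 0.27 and 0.026. edgeR called 0 members, and 2 members, NDRG1 and GPI, were lower at an unadjusted p under 0.05 (3.36% of all genes) and 0 higher (4.74% of all genes). DESeq2 called 0 members lower (0.35% of all genes) and 0 higher (1.41% of all genes) without this library, with adjusted p-values of 0.0634 for NDRG1 and 0.102 for GPI. The count at an unadjusted p under 0.05 also depended on other libraries. It was 20 members lower when naive replicate 2 was left out (5.47% of all genes), 3 when post-MI replicate 1 was (2.08% of all genes) and 2 when post-MI replicate 2 was (1.43% of all genes). The count was 18 when naive replicate 3 was left out and 11 when post-MI replicate 3 was. For both, the share of all genes is not given here. These fits tested 33 members each, and 32 without post-MI replicate 3.

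In 9 members all post-MI libraries were below all naive libraries in CPM (8.65% of all genes): SLC2A1, GPI, ALDOA, TPI1, GAPDH, ENO1, SLC16A3, BNIP3L and NDRG1. With TMM-scaled CPM the number was again 9 (7.81% of all genes), with PFKFB4 in and TPI1 out. Without naive replicate 1, 12 members did not overlap and were lower (14.2% of all genes), with PFKM, ENO2 and P4HA1 added to the 9. In 0 members did the post-MI libraries lie above all naive libraries, with all 6 libraries (7.43% of all genes) or without naive replicate 1 (10.8% of all genes).

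**Figure D2:**
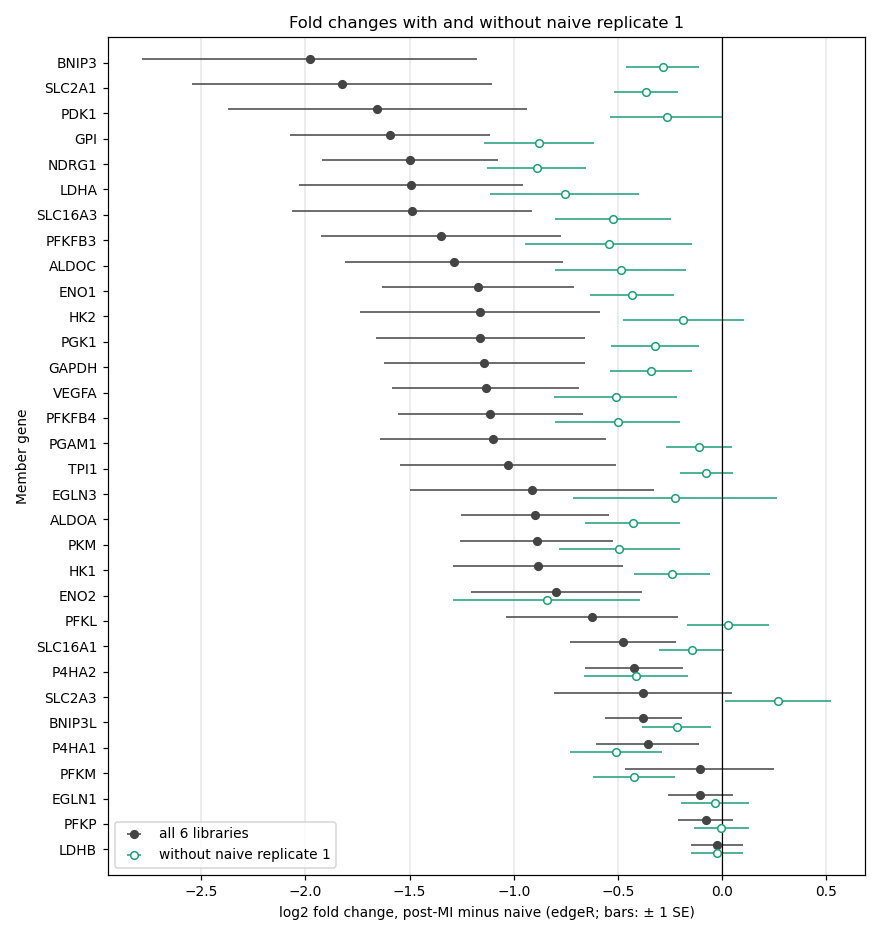
Log2 fold change (post-MI minus naive) of each tested member with its SE, fitted by edgeR on all 6 libraries (filled) and without naive replicate 1 (open), ordered by the first. All filled points lie at or below 0, and leaving out naive replicate 1 takes BNIP3 from -1.98 to -0.29 but GPI only from -1.59 to -0.88.

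Glucose enters endothelial cells mainly through SLC2A1 (GLUT1), with SLC2A3 (GLUT3) as a high-affinity relative. SLC2A1 was at 118, 19.9 and 18.4 CPM in naive replicates 1, 2 and 3, and at 14.99, 13.1 and 15.6 CPM in post-MI replicates 1, 2 and 3. Naive replicate 1 was 6.17-fold above the mean of the other naive libraries, yet these too lay above each post-MI library. edgeR put the log2 fold change of SLC2A1 at -1.83 ± 0.72 (SE) with an adjusted p of 0.566, and at -0.36 ± 0.15 with 0.614 once naive replicate 1 was left out. SLC2A3 peaked at 318 CPM in naive replicate 1, above 96.2 to 172 CPM in the others, with its lowest level in post-MI replicate 3 and the groups overlapping.

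Hexokinase traps glucose in the cell as glucose 6-phosphate. HK1, the isoform of most tissues, was at 612, 227 and 237 CPM with naive plasma and 166, 169 and 239 CPM with post-MI plasma. The inducible HK2 was at 88.2 CPM in naive replicate 1, with 15.2 CPM in naive replicate 3 as the lowest of all libraries and 30.6 CPM in naive replicate 2 as the next highest. Neither isoform separated the groups, and without naive replicate 1 their log2 fold changes moved from -0.88 to -0.24 (HK1) and from -1.16 to -0.19 (HK2). GPI, which isomerises glucose 6-phosphate to fructose 6-phosphate, was at 1042, 299 and 427 CPM with naive and 133, 199 and 244 CPM with post-MI plasma. All naive libraries lay above all post-MI libraries. For GPI edgeR fitted a log2 fold change of -1.59 ± 0.48 (SE) at an adjusted p of 0.513, and of -0.88 ± 0.26 at 0.464 when naive replicate 1 was dropped.

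Phosphofructokinase commits the sugar to glycolysis, and has liver, platelet and muscle subunits (PFKL, PFKP and PFKM). PFKL was at 209.98, 71.6 and 85.7 CPM with naive and 60.01, 86.1 and 88.4 CPM with post-MI plasma. PFKP stayed within 117 to 142 CPM in all 6 libraries. PFKM ran from 15.01 CPM in naive replicate 1 to 43.8 CPM in naive replicate 3, so that naive replicate 1 was the highest library for PFKL and the lowest for PFKM. The log2 ratio of PFKM to PFKL was -3.80 in naive replicate 1 and between -1.59 and -0.97 in the other libraries; ratios of different genes carry their lengths, so only their change between libraries is read. PFKFB3 and PFKFB4 make fructose 2,6-bisphosphate, which activates phosphofructokinase. PFKFB3 was at 52.5, 10.1 and 22.7 CPM with naive and 7.41, 9.96 and 15.6 CPM with post-MI plasma. PFKFB4 was at 13.4, 4.93 and 5.61 CPM with naive and 2.88, 3.096 and 4.94 CPM with post-MI plasma. Levels of PFKFB3 overlapped, and PFKFB4 in naive replicate 2 lay just under post-MI replicate 3. Without naive replicate 1 the log2 fold change of PFKFB3 moved from -1.35 to -0.54, and that of PFKFB4 from -1.11 to -0.50.

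Aldolase and triose phosphate isomerase yield the triose phosphates of the lower pathway. ALDOA, the main aldolase, was at 1946, 796 and 1048 CPM with naive and 491, 722 and 789 CPM with post-MI plasma, without overlap. Its brain-type relative ALDOC was at 20.7, 7.80 and 5.27 CPM with naive and 3.68, 3.90 and 6.09 CPM with post-MI plasma, where post-MI replicate 3 lay above naive replicate 3. Leaving out naive replicate 1 moved the log2 fold change from -0.90 to -0.43 for ALDOA and from -1.29 to -0.49 for ALDOC. TPI1 had 626 CPM in naive replicate 1 and kept to 144 to 173 CPM in the rest, where the groups parted by 162 against 160.4 CPM. Its log2 fold change of -1.03 was -0.076 without naive replicate 1.

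The payoff steps return ATP and end in pyruvate. GAPDH, which reduces NAD+ and is a common reference gene, was at 4075, 1293 and 1277 CPM with naive and 759, 1040.01 and 1173 CPM with post-MI plasma. The deposited description of the GAPDH row ends in "-like", so which copy of the gene it counts is uncertain. Every naive library was above every post-MI library, but naive replicate 1 was 3.17-fold above the mean of naive replicates 2 and 3. PGK1, which makes ATP, was at 971, 267 and 320.2 CPM with naive and 186, 205 and 296 CPM with post-MI plasma. Post-MI replicate 3 of PGK1 lay between naive replicates 2 and 3. The log2 fold change was -1.14 for GAPDH and -1.16 for PGK1, and -0.34 and -0.32 once naive replicate 1 was left out. PGAM1, a mutase, reached 1162 CPM in naive replicate 1 against 238 to 320.3 CPM in the rest, and without that library its log2 fold change was -0.11.

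ENO1, the general enolase, was at 3214, 1043 and 1126 CPM with naive and 635, 727 and 996 CPM with post-MI plasma, without overlap. Its log2 fold change was -1.17 with all libraries and -0.43 without naive replicate 1. ENO2, the neuron-type enolase, ran from 1.55 to 5.76 CPM and was not highest in naive replicate 1. Its log2 fold changes were -0.80 with all libraries and -0.84 without naive replicate 1. Leaving out post-MI replicate 3 or 1 moved it to -1.35 or -0.47. PKM, the pyruvate kinase of most tissues, was at 2836.5, 1239.5 and 1724 CPM with naive and 691, 998 and 1391 CPM with post-MI plasma. Post-MI replicate 3 was above naive replicate 2 for PKM, so the groups overlapped, and its log2 fold change was -0.89 (-0.49 without naive replicate 1).

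Lactate dehydrogenase is a tetramer of LDHA and LDHB subunits, of which LDHA is the HIF target. LDHA was at 1890.0, 431 and 851 CPM with naive and 242, 358 and 509 CPM with post-MI plasma, so post-MI replicate 3 lay above naive replicate 2. LDHB lay within 411 to 453 CPM in all 6 libraries. The log2 ratio of LDHA to LDHB was 2.13, -0.0063 and 0.91 in naive and -0.83, -0.28 and 0.31 in post-MI replicates 1, 2 and 3. The LDHA fold change fitted by edgeR (log2) was -1.49 ± 0.54 (SE) at an adjusted p of 0.561, and -0.76 ± 0.36 at 0.653 when naive replicate 1 was dropped. The log2 fold change of LDHB was -0.025 with and without naive replicate 1, and turned to 0.0025 when post-MI replicate 3 was dropped.

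Monocarboxylate transporters carry lactate across the plasma membrane. SLC16A3 (MCT4), the export form typical of glycolytic cells, was at 110.3, 26.9 and 31.2 CPM with naive and 12.5, 21.4 and 25.3 CPM with post-MI plasma, without overlap. Its log2 fold change was -1.49, and -0.52 without naive replicate 1. SLC16A1 (MCT1) reached 121 CPM in naive replicate 1, above the 52.9 to 75.3 CPM of the others. The log2 ratio of SLC16A3 to SLC16A1 did not overlap between the groups, at -1.27 to -0.13 with naive and -2.28 to -1.30 with post-MI plasma. Here post-MI replicate 2 at -1.30 was close to naive replicate 3 at -1.27, so the separation was small beside the spread within groups. Of 12 paralog ratios, this 1 separated all 6 libraries by group. Without naive replicate 1, 3 did, with those of ENO2 to ENO1 and PFKM to PFKL added. No share over ratios of other genes was computed. Of single genes, 8.65% were lower without overlap in all 6 libraries and 14.2% without naive replicate 1. The counts of ratios are therefore not read as a result about these pairs.

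**Figure D3:**
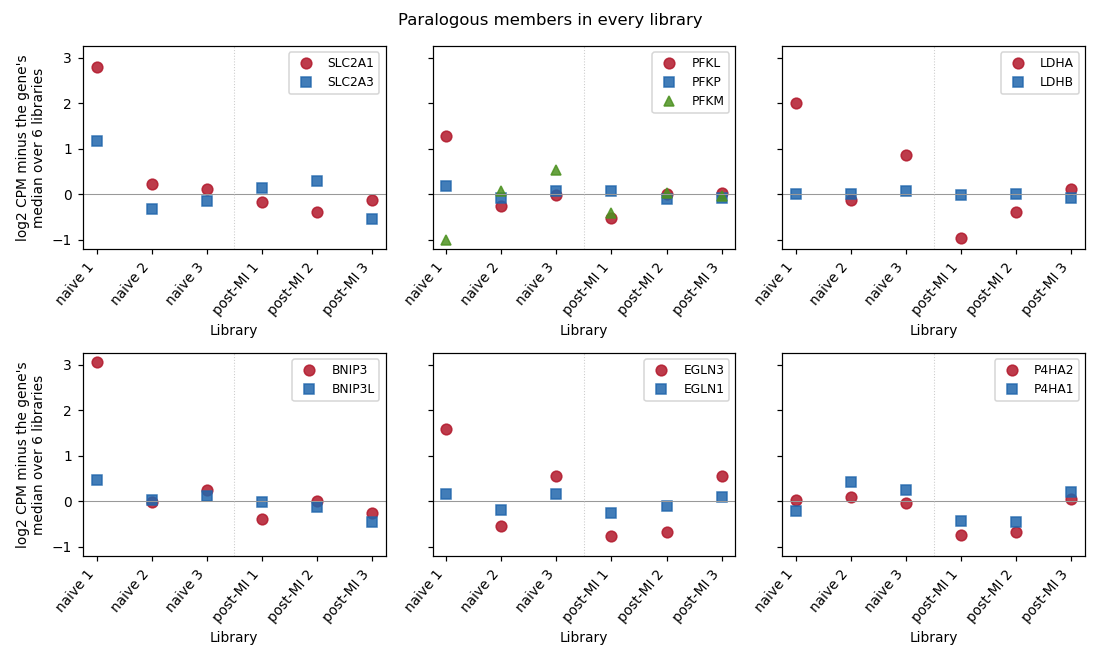
Log2 CPM of paralogous members minus each gene's own median over the 6 libraries, by library (naive left of the dotted line, post-MI right). In naive replicate 1 SLC2A1, SLC2A3, PFKL, LDHA, BNIP3 and EGLN3 stand well above their medians. BNIP3L is also highest there, by less. PFKP, LDHB, EGLN1 and P4HA2 lie near 0, and PFKM lies lowest of its 6 libraries.

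Outside glycolysis, BNIP3 and PDK1 had large excesses in naive replicate 1. BNIP3, a mitophagy receptor of the outer mitochondrial membrane, was at 182, 21.7 and 26.1 CPM with naive and 16.9, 22.2 and 18.4 CPM with post-MI plasma. Naive replicate 1 was 7.59-fold above the mean of naive replicates 2 and 3, which overlapped the post-MI libraries. In edgeR the log2 fold change of BNIP3 was -1.98 ± 0.80 (SE) at an adjusted p of 0.566, and -0.29 ± 0.17 at 0.700 when naive replicate 1 was dropped. Its relative BNIP3L had 248 CPM in naive replicate 1 against 132 to 194 CPM in the rest, with a log2 fold change of -0.38 (-0.22 without naive replicate 1) and no overlap of the groups.

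PDK1, the kinase that shuts off pyruvate dehydrogenase, was at 39.1, 7.91 and 5.66 CPM with naive and 5.97, 6.12 and 4.42 CPM with post-MI plasma. Only naive replicate 1 stood out, 5.76-fold above the mean of the other naive libraries, and the log2 fold change of -1.65 was -0.27 without it. EGLN3, an oxygen sensor that HIF itself induces, was at 14.9, 3.38 and 7.26 CPM with naive and 2.93, 3.096 and 7.30 CPM with post-MI plasma. Naive replicate 3 and post-MI replicate 3 were level, and the log2 fold change of EGLN3 was -0.91, which moved to -0.23 when naive replicate 1 was dropped and to -1.47 when post-MI replicate 3 was. EGLN1, the main oxygen sensor, lay within 52.6 to 70.3 CPM in all 6 libraries.

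VEGFA, the growth factor that attracts vessels, was at 336, 165 and 96.3 CPM with naive and 117, 80.0 and 71.8 CPM with post-MI plasma. Post-MI replicate 1 lay above naive replicate 3, and the log2 fold change was -1.13, or -0.51 without naive replicate 1. NDRG1, a stress-responsive gene induced by low oxygen, was at 144, 56.7 and 57.0 CPM with naive and 24.4, 24.6 and 41.1 CPM with post-MI plasma. The groups of NDRG1 did not overlap, and naive replicates 2 and 3 together averaged 1.89-fold the post-MI mean. The log2 value fitted by edgeR for NDRG1 was -1.50 ± 0.42 (SE), with the smallest adjusted p of the members, 0.491, and -0.89 ± 0.24 at 0.391 when naive replicate 1 was dropped.

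Collagen prolyl 4-hydroxylases, which stabilise the collagen helix, had no excess in naive replicate 1. P4HA2 was at 649, 681 and 619.8 CPM with naive and 379.6, 396 and 659 CPM with post-MI plasma, with post-MI replicate 3 inside the naive range. Its log2 fold change in edgeR was -0.42 ± 0.24 (SE, with 0.604 as the adjusted p) and -0.41 without naive replicate 1. Leaving out post-MI replicate 3 or 1 moved it to -0.72 or -0.28. P4HA1 ran from 126 CPM in post-MI replicate 2 to 233 CPM in naive replicate 2, with naive replicate 1 at 150.3 CPM. Its log2 fold change was -0.36, and -0.51 without naive replicate 1. It moved to -0.60 when post-MI replicate 3 was dropped and to -0.20 when naive replicate 2 was.

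The 2 members below the count filter were read as counts. ANKRD37, a HIF target, had 101, 3 and 11 counts with naive plasma and 1, 2 and 5 counts with post-MI plasma. CA9, the carbonic anhydrase that acidifies the surroundings of hypoxic cells, had 15, 7 and 10 counts with naive and 5, 5 and 16 counts with post-MI plasma. A level of 3 counts, the limit that a count of 0 allows, corresponds to 0.145 to 0.202 CPM in these libraries, so ANKRD37 was above that limit in naive replicates 1 and 3 and post-MI replicate 3. CA9 did not stand out in naive replicate 1.

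**Figure D4:**
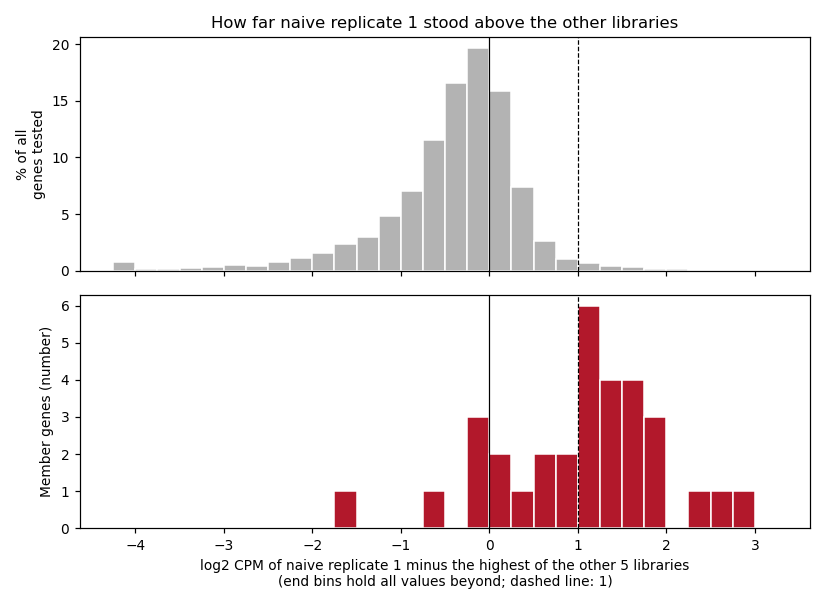
Log2 CPM of naive replicate 1 minus the highest of the other 5 libraries, as a share of all 14326 genes tested (top) and as a number of the 32 tested members (bottom). All genes centre just under 0 and 2.02% exceed 1 (dashed line), whereas 20 members exceed 1 and PFKM lies farthest left.

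Among the other 5 libraries the members also varied, by a median log2 range of 0.84 against 0.55 for all genes tested. Of the post-MI libraries, replicate 3 was highest for 23 of the 32 members (39.7% of all genes), and post-MI replicate 1 was lowest of all 6 libraries for 19 (18.6% of all genes). Naive replicate 3 was above naive replicate 2 for 23 of 32 (55.4% of all genes). Between the highest and lowest of these 5 libraries the widest folds among the tested members were 3.72 for ENO2, 3.52 for LDHA, 3.20 for GPI and 3.06 for PFKFB3, and the narrowest were 1.10 for LDHB, 1.13 for PFKP and 1.19 for TPI1. TPI1 was thus nearly level outside naive replicate 1 while LDHA was not.

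Genes around these members were read from 5 further lists, in which edgeR called 0 genes. Of HIF subunits and their regulators, 15 were tested, and 12 were negative (52.1% of all genes). Their median log2 fold change was -0.14, and -0.11 without naive replicate 1. At an unadjusted p under 0.05 in edgeR, VHL alone was lower with all 6 libraries (4.08% of all genes). Without naive replicate 1, CITED2 alone was lower (3.36% of all genes), so no gene of this list was lower in both sets. The oxygen-regulated subunit HIF1A, chosen after its values were seen, was at 763, 184 and 212 CPM with naive and 160.1, 155 and 205 CPM with post-MI plasma. Like most members, HIF1A was highest in naive replicate 1, with a log2 fold change of -1.14 that was -0.16 without that library. Chosen likewise, EPAS1 (HIF-2 alpha) was at 872, 689.9 and 328 CPM against 428, 313 and 459 CPM (log2 fold change -0.64, and -0.32 without naive replicate 1). The partner ARNT, also so chosen, lay within 48.7 to 63.6 CPM (-0.04, and 0.094 without naive replicate 1). VHL, which marks HIF for destruction, was at 27.7 to 32.0 CPM with naive and 22.9 to 24.9 CPM with post-MI plasma, which edgeR fitted as -0.32 ± 0.12 (log2, SE) at an adjusted p of 0.566, and as -0.27 without naive replicate 1. CITED2, a HIF antagonist, gave -0.38 (-0.45 without naive replicate 1) and ELOC, a partner of VHL, -0.38 (-0.22), and neither overlapped between the groups.

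Of 29 other HIF targets tested, 22 were negative (52.1% of all genes). In naive replicate 1, 20 were highest (28.9% of all genes), 7 of them by more than 1 on the log2 scale (2.02% of all genes). Their median log2 fold change was -0.37, and -0.06 without naive replicate 1, where 16 were negative, near the 49.4% of all genes. At an unadjusted p under 0.05, 2 were lower and 1 higher (4.08% and 4.61% of all genes), and without naive replicate 1 this turned to 1 lower and 2 higher (3.36% and 4.74% of all genes). LOXL2, a matrix crosslinking enzyme, was at 1153, 1212 and 1001 CPM with naive and 609.6, 721 and 888 CPM with post-MI plasma, and gave -0.58 (-0.55 without naive replicate 1). PPP1R3C, which steers glycogen synthesis, gave -1.58 (-0.90), whereas EFNA1, an ephrin ligand, gave 0.96 (0.94), with post-MI replicate 3 level with naive replicate 3 at 33.8 CPM.

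Genes that link pyruvate to mitochondria had a median log2 fold change of -0.16 over 13 tested (-0.14 without naive replicate 1), with 0 of them above every other library by more than 1 in naive replicate 1. PDHA1, a subunit of pyruvate dehydrogenase, was at 143 to 169.5 CPM with naive and 89.0 to 133 CPM with post-MI plasma (log2 fold change -0.49, and -0.41 without naive replicate 1). PDP2, the phosphatase that reactivates the enzyme, gave -0.81 (-0.79). PDK4, another inhibitory kinase of that enzyme, was at 12.4, 23.4 and 50.1 CPM with naive and 75.7, 92.7 and 44.2 CPM with post-MI plasma, so naive replicate 1 was lowest for PDK4 and highest for PDK1. The log2 fold change of PDK4 was 1.34, and 0.99 without naive replicate 1. Of 24 further hexose and glycogen genes tested, 16 were negative (52.1% of all genes), with a median of -0.19. Without naive replicate 1, 17 were (49.4% of all genes), with a median of -0.16. The glycogen enzymes GBE1 and PYGL gave -0.63 and -0.66, and the glycerol phosphate dehydrogenase GPD2 -0.58. Without naive replicate 1 these were -0.51 (GBE1), -0.17 (PYGL) and -0.26 (GPD2).

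In the pentose phosphate and hexosamine list, 10 of 12 were negative with all 6 libraries (52.1% of all genes), with a median of -0.38. Without naive replicate 1, 9 were (49.4% of all genes), with a median of -0.22. In both sets of libraries 6 were lower without overlap of the groups (8.65% of all genes, and 14.2% without naive replicate 1). Likewise 5 were lower at an unadjusted p under 0.05 in both (4.08% and 3.36% of all genes). PGD, an NADPH-forming enzyme, was at 234, 168 and 194 CPM with naive and 113, 118 and 125 CPM with post-MI plasma. TALDO1, a transaldolase, was at 258, 176 and 231 CPM with naive and 57.4, 92.3 and 129 CPM with post-MI plasma. Neither overlapped between the groups, and their log2 fold changes were -0.72 and -1.23, or -0.57 and -1.09 without naive replicate 1. The adjusted p of edgeR was 0.354 for PGD and 0.382 for TALDO1. DESeq2 called 3 genes of this list lower and 0 of the other 4 lists (0.464% of all genes). Without naive replicate 1 it called 2 of this list lower (0.35% of all genes), with TALDO1 at an adjusted p of 0.0501 no longer among them.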

How the data were processed

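The sheep build Oar_v3.1 is named per the submitters' processing notes, as are the tools DESeq2 1.26.0, featureCounts 2.0.0, STAR 2.5.2b, MultiQC 1.5, SAMtools 1.9 and FastQC. What is not given in the sources used here is the annotation, the strand setting and how reads with several matches were counted, so levels of genes with near-identical copies are uncertain. Libraries were stranded mRNA libraries read as paired ends of 150 bp, per the labels' protocols. The authors deposited raw counts per gene symbol (18865 rows, 17030 with any count) and, per library, a signal that equals those counts times 1 factor per library (100% of non-zero counts within 0.01%); the signal was used for this check alone. Columns were matched to samples by name.

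The members and lists were chosen with earlier results of these data known. In R 4.3.3, genes were filtered with filterByExpr of edgeR 4.0.16 (minimum count 10, minimum total 15; 14326 genes), scaled by TMM and tested by quasi-likelihood (glmQLFTest), with p-values adjusted by Benjamini-Hochberg over all genes and called at 0.05. SE was obtained by dividing the size of the log2 fold change by the root of its F. Log2 CPM and log2 ratios used a prior count of 2. CPM used library totals and has no interval; the floor of 3 counts covers counting error alone. Alternatives were DESeq2 1.42.0, limma-voom (limma 3.58.1), DESeq2 size factors within edgeR, no filter, 1 CPM in at least 3 libraries, a block for the replicate number, and leaving out single libraries in turn; DESeq2 without naive replicate 1 was added after seeing the data. CPM of every library was given for 20 members: the 16 with the smallest p and, for each role without one, its member with the smallest p. The other tested members were given by range. Up to 3 genes with the smallest p were named per list. A gene of a list is not reported here. Coordinates are not given, since the RefSeq table at hand (all 34 symbols matched) is of another build. The edgeR test alone was tried on simulated counts.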

Additional observations from a re-analysis of the deposited data

How the results depend on the processing

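No member was called by edgeR or limma-voom in the alternatives run, and the DESeq2 Wald test called 2 lower with all libraries. The median log2 fold change of the members, -1.06, was -0.84 with limma-voom, -0.83 with the replicate number as a block, -0.36 with DESeq2 without naive replicate 1, and -1.32 to -0.35 with single libraries left out. At an unadjusted p under 0.05, limma-voom gave 6 members lower (3.39% of all genes), against 13 in the main edgeR fit (4.08% of all genes). The replicate block gave 4, but the share of all genes for that fit is not given here, so this count is not read further. Signs turned for 4 members, SLC2A3, PFKL, PFKM and LDHB, and for ARNT among the other genes named. SLC2A3 ran from -0.63 to 0.27 and PFKL from -0.89 to 0.026 with single libraries left out, and DESeq2 without naive replicate 1 gave 0.26 and 0.024. PFKM was 0.0021 with limma-voom, 0.0023 with the replicate block and -0.42 to 0.24 with single libraries left out. LDHB ran from -0.044 to 0.0025 and ARNT from -0.13 to 0.094 (0.091 in DESeq2 without naive replicate 1). The cause was not tested. Libraries with the same number shared only that number: the correlations of their deviations from the group means across genes were 0.15, -0.11 and 0.09, and naive replicates 2 and 3 correlated best with other numbers. The count filter kept 2 members, CA9 and ANKRD37, out of the edgeR test, and the fits without it tested all 34.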
